A study of Mus musculus with 9 samples.

Results

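The comparison described here sets mouse cardiomyocyte cultures of day 30 against those of day 20, the later of the 2 intervals covered by a series of 9 expression arrays. It uses 6 of the 9 arrays, 3 from each day, chosen by the day that the sample labels give, while the 3 arrays of day 10 enter only the estimate of the spread and the comparison of intervals. Every group shares the same origin: the synp line, which descends from R1 embryonic stem cells of a 129X1 x 129S1 background and carries the puromycin resistance gene PAC under the promoter of Ncx1 (listed here as Slc8a1). Activin A, BMP4, VEGF, bFGF and FGF10 drove differentiation, and puromycin from day 7 removed cells that did not use the promoter. All cultures are therefore of 1 engineered line under 1 selection, and time, 20 or 30 days, is the only difference that the labels name. Biotin-labelled copies of total RNA were measured on 3 prime arrays, and each probe set gave 1 signal per array, taken here as log2. Whether the 3 replicates of a day came from separate differentiations is not stated in the labels, so p-values cover only the variation among these arrays, which may be technical.

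Cardiomyocytes made from stem cells resemble fetal heart muscle. Maturation in the heart brings a switch of contractile protein isoforms, growing use of fatty acids for energy, tighter calcium cycling and an end to cell division. Cultures enriched for heart muscle can also hold fibroblasts, the cells that make collagens and the small leucine-rich proteoglycans that bind and space collagen fibrils. In RNA from whole cultures, fewer cells of a type and less RNA per cell cannot be told apart.

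The 6 arrays were alike in overall level, with medians over all probe sets of 5.50 to 5.56 (log2). Over 18194 genes, each taken at its brightest probe set, arrays of the same day correlated at 0.986 to 0.992 and arrays of different days at 0.976 to 0.989. Day 30 replicate 2 stood apart in RNA signals: its 18S ribosomal RNA signal was 10.27, against 12.19 and 13.08 in the other day 30 arrays and 12.35 to 12.91 at day 20, and its actin signal was 0.79 higher at the 3 prime than at the 5 prime probe set, against 0.33 to 0.59 in the other 5. Defining markers of heart muscle were present on every array. Troponin T (Tnnt2), of the thin filament, read 13.01, 13.09 and 13.32 at day 20 and 13.59, 13.49 and 13.54 at day 30. None of the 12 cardiomyocyte markers had both day means below the median gene (6.63, log2). Their summed signal, on a log2 scale, was 16.45 to 16.71 at day 20 and 16.68 to 16.76 at day 30.

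Far more genes rose than fell over the interval. With limma and an adjusted p under 0.05 as the threshold, 53 genes rose, 0.291% of those tested, and 8 fell, 0.0440%. Of these, 43 rises and 3 falls were at least 2-fold. In all 61 the 3 arrays of one day lay entirely above the 3 of the other. At an unadjusted p under 0.05, 1194 genes (6.56%) were higher and 780 (4.29%) lower, and the arrays did not overlap for 2128 genes (11.7%) in the upward and 1768 (9.72%) in the downward direction. The median difference over all genes was 0.0045 (log2), and 51.09% of genes had a difference above 0. That share is the base for counts of genes above or below 0 in the lists below. Genes of a list were measured on the same arrays and can move together, so such counts are not counts of independent results. The calls were sensitive to single arrays. Leaving out day 20 replicates 1, 2 and 3 in turn left 35, 8 and 5 rises, and leaving out day 30 replicates 1, 2 and 3 left 22, 17 and 24. Falls numbered 1, 1 and 0, then 0, 0 and 2. In the 3 settings with 0 falls, 450 genes (day 20 replicate 3 omitted), 498 (day 30 replicate 1 omitted) and 707 (day 30 replicate 2 omitted) were lower at an unadjusted limma p under 0.05. All 61 genes kept their direction in each of these fits, which was fixed in advance because their arrays do not overlap. Their unadjusted limma p stayed at most 0.001, but they had been chosen by p in the same arrays.

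**Figure D1:**
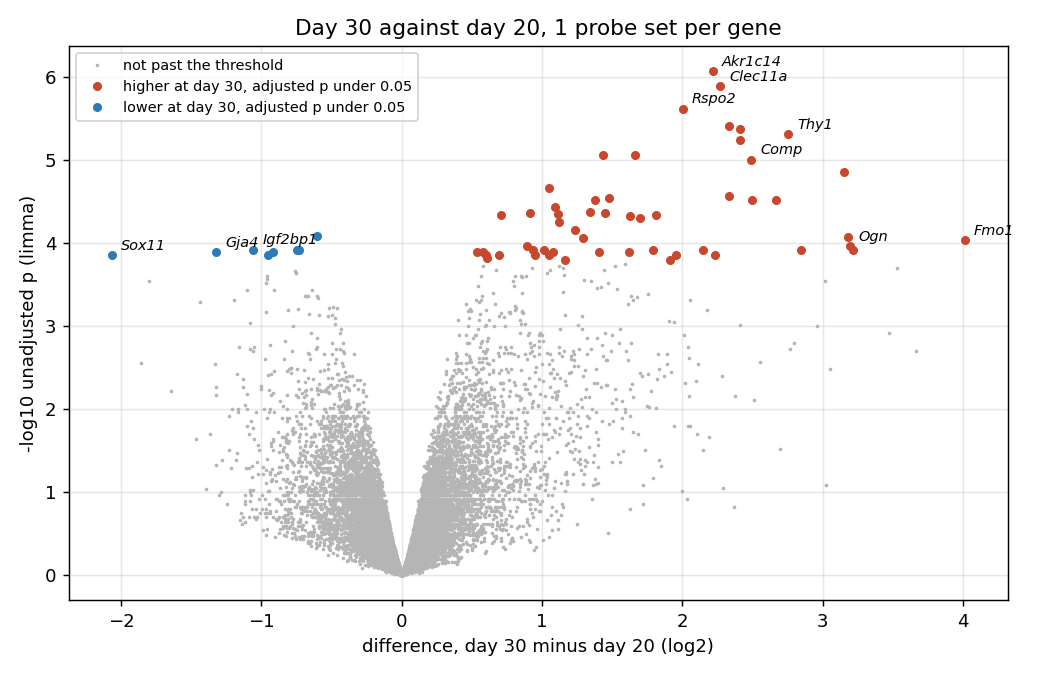
Each point is 1 of 18194 genes, with the difference in log2 signal between day 30 and day 20 on the horizontal axis and the -log10 of limma's unadjusted p on the vertical axis. Coloured points passed an adjusted p of 0.05: the 53 rises spread to 4.01 (Fmo1), and the 8 falls reach -2.07 (Sox11).

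The largest rises were those of the oxidising enzyme Fmo1, the membrane glycoprotein Gpm6b, the matrix proteins Ogn and Prelp, and the noncoding RNA Neat1. Fmo1, a flavin monooxygenase that oxidises drugs and other small molecules, read 7.48, 5.05 and 5.64 at day 20 and 10.37, 10.38 and 9.46 at day 30. Its difference of 4.01 ± 0.57 (SE, n = 3 per day, adjusted p = 0.045), or 16.1-fold, was the largest of all calls, although its day 20 arrays differed widely among themselves. Osteoglycin (Ogn), a small leucine-rich proteoglycan, read 8.72, 7.07 and 6.76 at day 20 and 11.08, 10.39 and 10.66 at day 30, a rise of 3.19 ± 0.46 (SE, adjusted p = 0.045). Its 2 probe sets gave similar rises of 3.19 and 3.30.

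Other proteoglycans of the family rose too. Fibromodulin (Fmod), which binds collagen fibrils, rose from 10.43, 10.73 and 9.10 to 12.74, 13.36 and 12.69, a difference of 2.84 ± 0.41 (SE, adjusted p = 0.045). Prelp, which anchors basement membranes to connective tissue, read 7.30, 7.38 and 6.29 before and 9.68, 11.19 and 9.64 after, a rise of 3.18 ± 0.44 (SE, adjusted p = 0.045). Day 30 replicate 2 was the highest array for both, yet the remaining day 30 arrays also lay above every day 20 array. Osteomodulin (Omd), known from bone, rose by 2.33 ± 0.22 (SE, adjusted p = 0.015) from a dim level of 3.69 to 4.61 at day 20. Decorin (Dcn), the founding member of the family, was 3.01 higher without passing the test (adjusted p = 0.061), and lumican (Lum) was 0.78 higher (adjusted p = 0.75) after reading 13.09, 12.61 and 11.99 at day 20 and 13.38, 13.37 and 13.27 at day 30. Epiphycan (Epyc), a cartilage member, rose by 0.89 at low signal, from 3.63 to 3.67 at day 20 up to 4.26 to 4.76 at day 30 (adjusted p = 0.045).

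Over the whole list of matrix proteoglycans and glycoproteins, 6 of 33 measured genes rose and 0 fell. At an unadjusted limma p under 0.05, 12 were higher and 0 lower, against 6.56% and 4.29% of all genes. The arrays of 12 did not overlap upward and those of 0 downward, against 11.7% and 9.72% of all genes. These shares are the base for the same counts in every list below. The median difference was 0.71, against 0.0045 for all genes. That median was 0.47 without day 30 replicate 3 and 0.46 with dim genes left out, those with both day means below the median gene. The others that rose were Comp, a cartilage protein that links collagens, and Tnxb, a tenascin of connective tissue. Comp read 10.31, 10.38 and 9.58 at day 20 and 12.20, 12.83 and 12.70 at day 30, a rise of 2.49 ± 0.26 (SE, adjusted p = 0.018). Every day 30 array lay well above the highest of day 20. Tnxb rose by 1.29 ± 0.18 (SE, adjusted p = 0.045). Elastin (Eln) was 0.59 lower, with an adjusted p of 0.69.

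Of 19 collagen chains, 2 rose and 0 fell. Col14a1, a fibril-associated collagen, went from 7.76, 6.97 and 6.91 to 9.55, 9.39 and 9.95, a rise of 2.41 ± 0.23 (SE, adjusted p = 0.015). Col5a3, of the fibril-forming type V, rose by 1.66 ± 0.17 (SE, adjusted p = 0.018), although another probe set of the gene gave 0.011. The main chain of type I collagen, Col1a1, was 1.52 higher without passing (adjusted p = 0.24), at 12.31, 11.48 and 11.02 at day 20 and 12.98, 13.61 and 12.79 at day 30. The collagens as a list had 6 members higher at an unadjusted p under 0.05, 9 with arrays that did not overlap upward, 0 in the other direction by either count, and a median difference of 0.70 (1.07 without day 20 replicate 1). Their level per array was 1.09, 0.28 and 0.11 at day 20 and 1.42, 1.52 and 1.33 at day 30, as the median of each gene's signal minus its mean over the 9 arrays. Day 20 replicate 1 thus stood nearest to day 30.

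Enzymes that shape the matrix gave 0 calls among 26 measured, with 5 higher and 0 lower at an unadjusted limma p under 0.05 and a median difference of 0.55, which was 0.27 without day 30 replicate 2. The metalloproteinase inhibitor Timp2 was 0.85 higher (adjusted p = 0.11), and the collagen-degrading protease Ctsk was 1.39 higher (adjusted p = 0.13). Penk, which encodes the opioid precursor proenkephalin, was 1.89 higher with an adjusted p of 0.17, at 12.27, 11.03 and 10.76 at day 20 and 13.42, 13.22 and 13.09 at day 30.

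**Figure D2:**
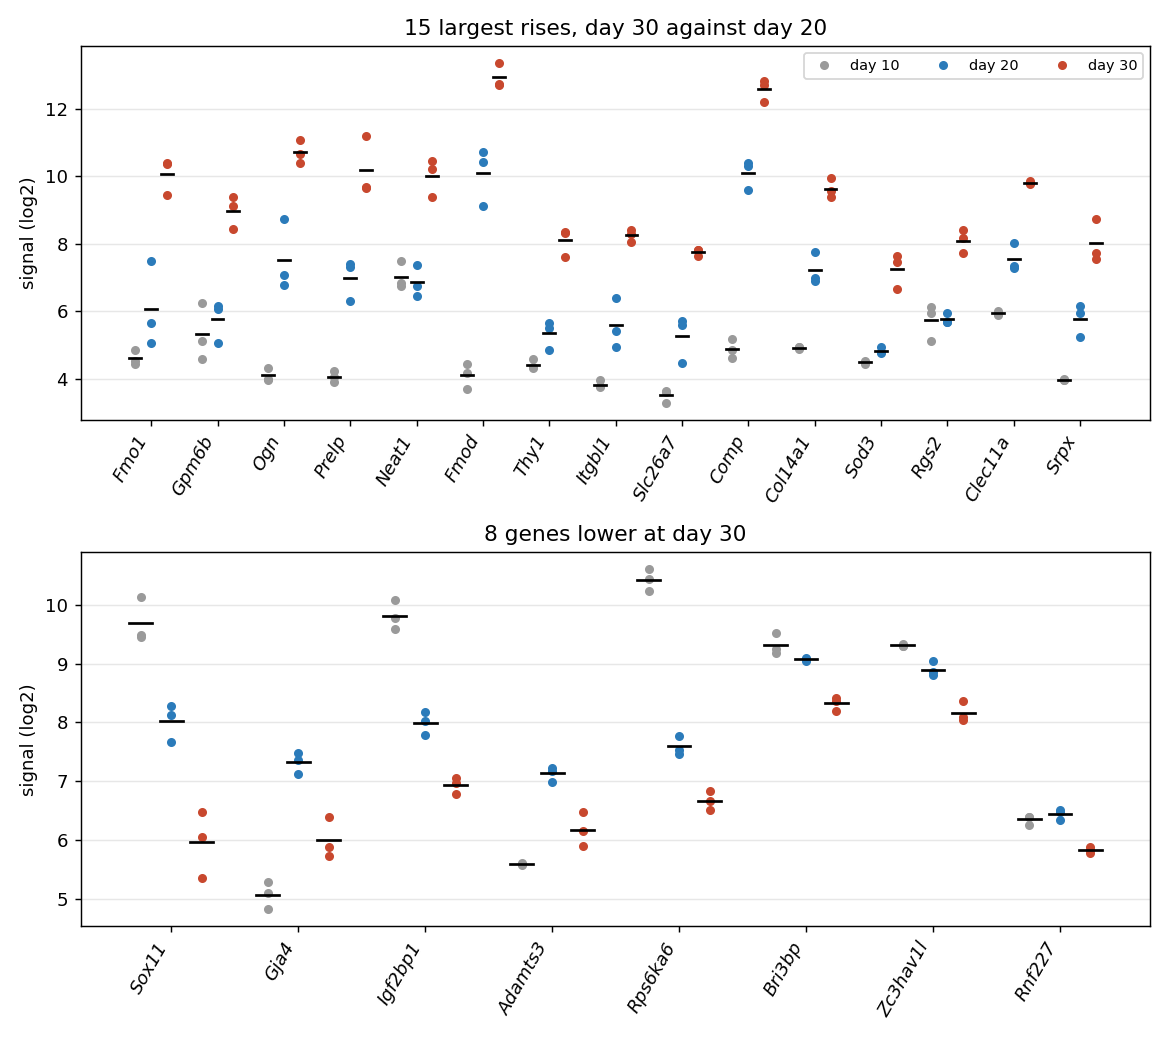
Points are the log2 signals of single arrays at day 10 (grey), day 20 (blue) and day 30 (red), and black bars are the means of the 3 arrays of a day. The upper panel holds the 15 largest rises from day 20 to day 30 and the lower panel the 8 genes that fell, and for each gene the day 20 and day 30 points do not overlap.

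Fibroblast genes outside the matrix were covered by a list of their own. Thy1, a surface glycoprotein used to mark fibroblasts, read 5.66, 4.85 and 5.51 at day 20 and 8.33, 7.59 and 8.36 at day 30, a rise of 2.76 ± 0.26 (SE, adjusted p = 0.015), or 6.75-fold. It was the 1 of 19 measured fibroblast markers that rose. At an unadjusted p under 0.05, 7 were higher and 0 lower, 17 of 19 had a difference above 0, and the median was 0.70 (0.39 without day 20 replicate 3, and 1.09 with dim genes left out). S100a4, a calcium-binding protein, was 1.37 higher (adjusted p = 0.21), Cd34 was 1.30 higher (adjusted p = 0.23), and the collagen receptor Ddr2 was 0.53 higher (adjusted p = 0.18). The summed signal of the list was 13.20 to 13.72 at day 20 and 13.94 to 14.23 at day 30 (log2), with no overlap. The part of these cells in the matrix values was not tested.

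Cartilage, bone and tendon genes were all above 0 in difference, 16 of 16, with 0 calls, 6 higher and 0 lower at an unadjusted limma p under 0.05, and a median of 0.40. Of the 16, 11 were dim, with both day means below 6.63, and the other 5 had a median of 1.72. The median of all was 0.63 without day 30 replicate 1. Col2a1, the collagen of cartilage, was 3.05 higher (adjusted p = 0.18) and read 8.13, 9.13 and 7.25 at day 20 and 11.40, 11.59 and 10.66 at day 30. Chondromodulin (Cnmd), an inhibitor of vessel growth in cartilage, was 3.66 higher (adjusted p = 0.15), with arrays of 9.77, 9.38 and 6.14 at day 30 against 4.54 to 5.21 at day 20. Day 30 replicate 3 was far below the others. Sox9, the transcription factor of cartilage, was 1.61 higher (adjusted p = 0.16).

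Markers of smooth muscle, endothelium, epicardium, blood, nerve, endoderm, fat, skeletal muscle and pluripotent cells gave 0 calls, and each of these lists had 0 to 2 genes higher and 0 lower at an unadjusted limma p under 0.05. Among smooth muscle markers, 10 of 14 were below 0, with a median of -0.20 that turned to 0.055 without day 20 replicate 1 and was -0.36 without day 20 replicate 3. Their summed signal was 14.32 to 14.85 at day 20 and 13.68 to 14.53 at day 30. Of 14 blood and macrophage markers, 13 were dim, and lysozyme (Lyz2) was 1.22 higher (adjusted p = 0.15), with day 30 arrays of 7.20 to 8.13 above day 20 arrays of 5.87 to 6.69. The endothelial receptor Tek read 4.18, 4.32 and 3.99 at day 20 and 4.65, 6.81 and 5.77 at day 30 (adjusted p = 0.39), in a list where 14 of 17 genes were dim.

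Several called genes belong to signalling and to defence. Clec11a, a secreted growth factor for bone and blood progenitors, differed little among the day 30 arrays: it read 8.01, 7.34 and 7.27 at day 20 and 9.79, 9.77 and 9.86 at day 30, a rise of 2.27 ± 0.18 (SE, adjusted p = 0.012). The steroid-metabolising Akr1c14 rose by 2.22 ± 0.17 (SE, adjusted p = 0.012), and Rspo2, a secreted enhancer of Wnt signalling, rose 4.01-fold (SE 0.17 on the log2 scale, adjusted p = 0.015). These 3 alone passed the threshold in each of the 6 fits with 1 array left out. The second probe set of Rspo2 gave -0.015, so its rise rests on the brighter one.

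Neat1, a nuclear long noncoding RNA that scaffolds paraspeckles, read 7.37, 6.46 and 6.76 at day 20 and 9.37, 10.45 and 10.21 at day 30, a rise of 3.15 ± 0.34 (SE, adjusted p = 0.023). Its other probe set gave only 0.216. The membrane glycoprotein Gpm6b rose by 3.21 ± 0.47 (SE, adjusted p = 0.045), with other probe sets as low as 0.494. Rgs2, which damps signals from G protein-coupled receptors, rose by 2.33 ± 0.28 (SE, adjusted p = 0.032), and its probe sets ranged from 0.061 to 2.33. Itgbl1 rose 6.36-fold, the anion transporter Slc26a7 5.64-fold and Srpx 4.69-fold (adjusted p = 0.032, 0.032 and 0.045).

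Genes of oxidant defence gave 2 rises. Extracellular superoxide dismutase (Sod3), which removes superoxide in the matrix, read 4.77, 4.80 and 4.93 at day 20 and 7.45, 7.62 and 6.64 at day 30, a rise of 2.41 ± 0.22 (SE, adjusted p = 0.015). The glutathione transferase Gstm1 rose by 1.24 ± 0.17 (SE, adjusted p = 0.045). Those were 2 of 19 measured antioxidant genes, and 0 fell. At an unadjusted p under 0.05, 6 were higher and 0 lower, and the median was 0.43 (0.26 without day 30 replicate 1). The quinone reductase Nqo1 was 1.32 higher (adjusted p = 0.15) and haem oxygenase (Hmox1) 1.71 higher (adjusted p = 0.19), with arrays of 5.27, 6.41 and 5.62 at day 20 and 7.57, 7.32 and 7.55 at day 30.

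Targets of ATF4, the transcription factor that answers amino acid shortage and other stresses by raising amino acid synthesis and transport, gave 1 rise among 24 measured genes and 0 falls. Cebpb, a partner transcription factor, went from 8.47, 8.61 and 8.55 to 9.46, 10.42 and 9.98, a rise of 1.41 ± 0.21 (SE, adjusted p = 0.045). At an unadjusted p under 0.05, 11 of the 24 were higher and 0 lower, the arrays of 9 did not overlap upward, and the median was 0.62. Atf5 was 1.65 higher (adjusted p = 0.077), and its day 20 replicate 2 was the highest array of that day, at 8.43 against 7.14 and 7.43. The pseudokinase Trib3 read 6.34, 7.71 and 6.74 at day 20 and 8.26, 8.44 and 8.58 at day 30, 2.82-fold higher (adjusted p = 0.13). Asparagine synthetase (Asns) read 8.74, 11.21 and 9.62 at day 20 and 10.88, 10.94 and 10.83 at day 30 (adjusted p = 0.54). Its day 20 replicate 2 lay above all the day 30 arrays. The whole list showed the same array as high within day 20: its level was -0.65, 0.48 and -0.27 at day 20 and 0.38, 0.69 and 0.48 at day 30.

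Interferon response genes, which are switched on through STAT and IRF factors, gave 1 rise among 21 and 0 falls. Xaf1, an interferon-inducible promoter of cell death, read 5.73, 5.63 and 5.17 at day 20 and 7.12, 6.73 and 7.09 at day 30, a rise of 1.47 ± 0.18 (SE, adjusted p = 0.032). The other probe set of Xaf1 gave 0.427. At an unadjusted p under 0.05, 9 of 21 were higher and 0 lower, the arrays of 11 did not overlap upward, and the median was 0.33. Most were weak signals, with 12 of 21 dim. Ifit3, an antiviral RNA-binding protein, was 0.86 higher (adjusted p = 0.089), and the class I histocompatibility gene H2-D1 was 0.80 higher (adjusted p = 0.065). Other called genes linked to innate defence were Ifi27 (1.81, adjusted p = 0.034), Samd9l (1.44, adjusted p = 0.018), Il18 (1.70, adjusted p = 0.035), and the receptors Tlr3 (0.93, adjusted p = 0.045) and Tlr4 (0.91, adjusted p = 0.034). They lay outside the list and were singled out after their values were seen. The 4 probe sets of Tlr4 ranged from 0.042 to 1.354.

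Both lists are tied to factors with known DNA motifs, so RefSeq promoter windows (GRCm38.p6, 250 bases before to 50 after a gene's start) were searched on both strands. The composite motif of ATF4 and C/EBP factors was searched as TGATGNAA, and it was found in 8 of 21 ATF4 list genes with a window, against 4.51% of 27025 genes. The interferon-stimulated response element was searched as GAAA, any 2 bases and GAAA, and it was found in 8 of 20 interferon genes, against 3.99%. Among list genes with a window, the 3 day 30 arrays all exceeded the day 20 arrays for 8 ATF4 and 10 interferon genes. Of those, 4 and 3 held their list's motif, and the windows below are theirs. Whether the motif goes with a rise was not tested. Capitals mark every match within the stretch shown, each written as its reverse complement where it lies on the opposite strand. A match describes the letters and is not evidence of binding.
Trib3 (chr2:152344029-152344056, minus strand): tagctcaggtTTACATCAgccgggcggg
Nupr1 (chr7:126625543-126625610, minus strand): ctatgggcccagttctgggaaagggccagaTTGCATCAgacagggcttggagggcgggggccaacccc
Aars (chr8:111033700-111033767, plus strand): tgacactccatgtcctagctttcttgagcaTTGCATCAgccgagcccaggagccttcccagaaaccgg
Slc7a11 (chr3:50443642-50443709, minus strand): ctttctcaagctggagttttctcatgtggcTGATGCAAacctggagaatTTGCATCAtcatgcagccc
Ifit1 (chr19:34640755-34640824, plus strand): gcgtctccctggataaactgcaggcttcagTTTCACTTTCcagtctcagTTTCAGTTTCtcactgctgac
Ifit3 (chr19:34583343-34583416, plus strand): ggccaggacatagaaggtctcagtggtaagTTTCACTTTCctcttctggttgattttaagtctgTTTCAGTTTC
Stat2 (chr10:128270248-128270315, plus strand): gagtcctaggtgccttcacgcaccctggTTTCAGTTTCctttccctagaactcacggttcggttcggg

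Ifit1 held matches that began 104 and 85 bases before the gene's start, and those of Ifit3 began 156 and 122 bases before it. Slc7a11 also held 2 matches, at 66 and 47 bases before the start. Aars held a second match at base 10 after its start, outside the stretch shown, and the match of Trib3 began at base 15 after it. Nupr1, a stress-induced chromatin protein, was 0.92 higher (adjusted p = 0.38), and the alanyl-tRNA synthetase Aars was 0.83 higher (adjusted p = 0.23). Aars read 9.36, 9.84 and 9.39 at day 20 and 10.41, 10.24 and 10.44 at day 30. The cystine transporter Slc7a11 was 0.17 higher at dim signal (adjusted p = 0.56), Ifit1 was 0.74 higher (adjusted p = 0.32), and Stat2, which carries the interferon signal to DNA, was 0.38 higher (adjusted p = 0.61). None of the 7 passed the test. Cebpb and Xaf1, the list members that rose, had no match to their list's motif in these windows.

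Among genes that sit next to each other, 4 pairs of called coding genes had no coding gene between them in the RefSeq order (GRCm38.p6): Prelp with Fmod and Fmo1 with Fmo2 on chromosome 1, Abca8a with Abca9 on chromosome 11, and Omd with Ogn on chromosome 13. Each pair is of related genes, and each rose in both members. Fmo2, a second flavin monooxygenase, rose by 1.05 ± 0.16 (SE, adjusted p = 0.045), against 4.01 for Fmo1. The 5 probe sets of Fmo2 ranged from 0.052 to 2.498, so the size of its rise depends on the probe set. The lipid transporter genes Abca9 and Abca8a rose by 1.45 and 0.95 (adjusted p = 0.034 and 0.045), and the other probe set of Abca9 gave 0.212. The pairs were noticed after their values were seen, and whether probes of related genes share signal was not tested.

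The genes that fell include regulators known from embryonic tissue. Sox11, a transcription factor of embryonic progenitors, read 7.68, 8.13 and 8.29 at day 20 and 6.05, 5.37 and 6.47 at day 30, and fell by 2.07 ± 0.31 (SE, adjusted p = 0.045), or 4.19-fold. The 6 probe sets of Sox11 ranged from -2.067 to -0.776. Igf2bp1, an RNA-binding protein of fetal and tumour cells, read 8.02, 7.79 and 8.18 before and 6.97, 6.78 and 7.07 after, and fell by 1.06 ± 0.16 (SE, adjusted p = 0.045). Its 4 probe sets ranged from -1.31 to -0.131. Of 9 oncofetal genes, 7 of them dim, Igf2bp1 alone fell and 0 rose. At an unadjusted p under 0.05, 3 were lower and 0 higher: Igf2bp1, its relative Igf2bp3 (-0.76, adjusted p = 0.056) and the chromatin protein Hmga2 (-1.10, adjusted p = 0.07). Hmga2 read 5.99, 5.54 and 6.25 at day 20 and 4.70, 4.80 and 4.97 at day 30.

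Gja4, a connexin of vessel walls, read 7.36, 7.48 and 7.13 at day 20 and 5.88, 5.73 and 6.39 at day 30, and fell by 1.32 ± 0.20 (SE, adjusted p = 0.045). Adamts3, a protease that trims procollagen, fell by 0.95 ± 0.14 (SE, adjusted p = 0.045), although its other probe set gave 0.082. The kinase Rps6ka6 fell by 0.92, Bri3bp by 0.75, Zc3hav1l by 0.74 and the dim Rnf227 by 0.61, each with an adjusted p of 0.045. Larger differences than most of these did not pass in other genes: the phosphatase inhibitor Ppp1r1a was -1.80 (adjusted p = 0.061), Bex4 was -1.64 (adjusted p = 0.22), and Ung, which removes uracil from DNA, was -1.44 (adjusted p = 0.08). Ppp1r1a read 8.73, 9.08 and 8.81 at day 20 and 6.83, 7.36 and 7.03 at day 30, well apart. Among the called falls, the other probe set of Rps6ka6 gave -0.112, and the 4 of Bri3bp ranged from -0.746 to -0.213.

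Genes of cell division were lower at day 30 without passing the test. All 31 mitosis genes had a difference below 0, with a median of -0.84, yet 0 were called, 0 had an unadjusted limma p under 0.05, and the arrays of 1 did not overlap. Mki67, the common marker of dividing cells, had days that overlapped: it read 10.13, 8.19 and 9.09 at day 20 and 7.52, 7.996 and 8.80 at day 30 (-1.04 ± 0.67, SE, adjusted p = 0.66). The mitosis list stood at 0.67, -0.95 and -0.04 at day 20 and -1.54, -1.14 and -0.32 at day 30, so that day 20 replicate 2 lay within the day 30 range. Its median difference was -1.27 without that array and -0.48 without day 20 replicate 1. Of 30 DNA replication genes, 28 were below 0, with a median of -0.51 (-0.85 without day 20 replicate 2 and -0.24 without day 20 replicate 1), 0 calls and 3 lower at an unadjusted p under 0.05, among them Cdt1 (-0.86, adjusted p = 0.43), which licenses replication origins, and Ccne2 (-1.33, adjusted p = 0.45), a cyclin of the entry into S phase. The list of cell cycle exit and p53 target genes had 0 calls among 21, with 13 above 0, 2 higher and 0 lower at an unadjusted limma p under 0.05, and a median of 0.14. Its arrays did not overlap for 3 genes upward and 2 downward, near the 11.7% and 9.72% of all genes. The cell cycle inhibitors Cdkn2b and Cdkn1c were higher without passing, by 2.05 (adjusted p = 0.23) and 0.80 (adjusted p = 0.21).

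**Figure D3:**
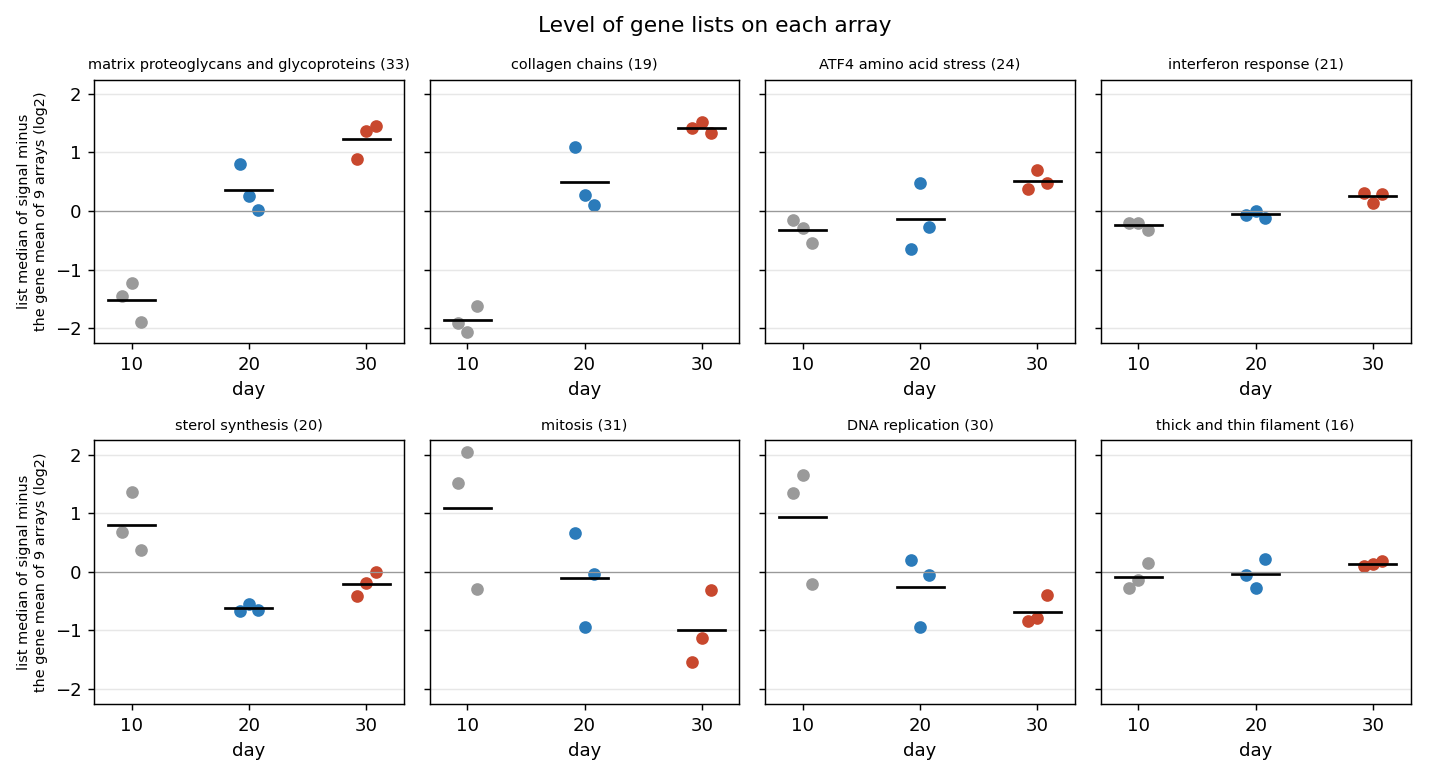
Each point is 1 array, and its height is the median over a list of each gene's log2 signal minus that gene's mean over the 9 arrays, with black bars at the mean of a day and the number of genes in brackets. The 3 day 30 arrays lie above all day 20 arrays for matrix, collagen, interferon and sterol genes, and the days overlap for ATF4, mitosis, DNA replication and filament genes.

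Contractile genes gave 0 calls. Of 16 thick and thin filament genes, 0 rose or fell, 2 were higher and 0 lower at an unadjusted limma p under 0.05, and the median was 0.16, a value that lay between 0.086 when day 20 replicate 2 was omitted and 0.30 when replicate 3 was. Tnnt2 was 0.40 higher (adjusted p = 0.17), and Myl4, the atrial and fetal light chain, was 0.24 higher (adjusted p = 0.46). None of the isoform genes that mark maturation in the heart passed the test. Myh6, the adult form in mouse, read 13.48, 13.79 and 13.65 at day 20 and 13.45, 13.56 and 13.48 at day 30 (-0.14 ± 0.19, SE, adjusted p = 0.86). Myh7, the fetal form, read 13.80, 13.49 and 14.15, then 14.16, 14.02 and 14.05 (0.26 ± 0.25, SE, adjusted p = 0.78). Both days overlapped in both genes.

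Cardiac troponin I (Tnni3) was 0.40 higher with arrays of 12.22, 12.74 and 12.62 against 13.04, 12.85 and 12.89 (adjusted p = 0.72), and its slow fetal form Tnni1 differed by 0.02 (95% interval -0.26 to 0.30). The sign of Tnni1 turned with quantile normalization, with median centring and when day 20 replicate 1 or day 30 replicate 1 was left out. Myl2, of the ventricle, read 13.10, 10.93 and 13.40 at day 20, where replicate 2 was low, and 13.57, 13.26 and 13.80 at day 30 (adjusted p = 0.65). Myl7, of the atrium, differed by -0.07 (adjusted p = 0.94), and turned to 0.04 without day 30 replicate 1.

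Calcium and channel genes gave 0 calls. Casq2, which stores calcium in the sarcoplasmic reticulum, was 0.81 higher (adjusted p = 0.23), at 10.72, 11.19 and 11.23 before and 11.64, 12.30 and 11.62 after. Slc8a1, whose promoter drives the selection gene, read 8.33, 7.94 and 8.24 at day 20 and 9.31, 7.65 and 8.54 at day 30 (0.33 ± 0.38, SE, adjusted p = 0.83), and turned to -0.07 without day 30 replicate 1. Of 17 calcium genes, 1 was higher and 0 lower at an unadjusted limma p under 0.05, with a median of 0.12 that went to 0.022 on omitting day 20 replicate 1, to 0.21 on omitting day 20 replicate 3 and to 0.25 with the mean of probe sets. Of 16 potassium and sodium channel and pump genes, 2 were higher, Kcnip2 (0.76, adjusted p = 0.18) and Kcnd2 (0.85, adjusted p = 0.42), which form the fast transient potassium current, and 1 was lower, Kcna5 (-0.85, adjusted p = 0.39).

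Single arrays set the levels of some load and stress genes. The natriuretic peptide Nppa read 9.96, 9.80 and 11.74 at day 20 and 10.37, 13.58 and 11.96 at day 30, with replicate 2 highest (adjusted p = 0.78). Nppb was 0.94 higher (adjusted p = 0.87), again with day 30 replicate 2 highest, at 11.16. Sarcolipin (Sln), an inhibitor of the calcium pump, was at 12.50 in that array against 8.61 and 8.92 in the others, and the iron-binding Lcn2 was at 10.88 against 5.95 and 3.47. This is the array with the low 18S signal, and its part in these values was not tested. The list of inflammatory cytokines had a median of 0.59 that was 0.10 without it and 1.03 without day 30 replicate 3, with 0 calls and 3 of 17 genes higher and 0 lower at an unadjusted limma p under 0.05. Immediate early genes, whose level at day 30 was -0.13, 1.15 and 0.89 by array against -0.34 to 0.32 at day 20, had 0 calls among 22 and 2 higher and 0 lower at an unadjusted limma p under 0.05.

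Genes of energy supply gave 0 calls. Of 42 oxidative phosphorylation genes, 0 were called, 0 were higher and 1 lower at an unadjusted limma p under 0.05, and the median was 0.025. Fatty acid oxidation had a median of 0.006 over 20 genes and 0 calls, with 1 higher (Acot2, 0.52, adjusted p = 0.43) and 0 lower at an unadjusted limma p under 0.05. Both medians turned sign when single arrays were left out. Ppargc1a, the coactivator that drives mitochondrial growth, read 9.12, 9.17 and 9.22 at day 20 and 9.36, 9.01 and 8.999 at day 30 (-0.04 ± 0.14, SE, 95% interval -0.36 to 0.29), and turned to 0.01 and 0.02 without day 30 replicates 2 and 3. It belongs to a list of 16 mitochondrial regulators, of which 0 were called and 11 were below 0, with a median of -0.06 (-0.13 without day 30 replicate 1). At an unadjusted limma p under 0.05, 4 were lower: the mitochondrial DNA helicase Twnk (-0.54, adjusted p = 0.22), the mitochondrial transcription factor Tfam (-0.26, adjusted p = 0.42), the respiratory gene regulator Nrf1 (-0.32, adjusted p = 0.43) and the coactivator Pprc1 (-0.26, adjusted p = 0.44). The thyroid hormone receptor Thrb was the 1 higher (0.44, adjusted p = 0.21), at dim signal. Twnk read 8.02, 8.20 and 8.42 at day 20 and 7.74, 7.52 and 7.76 at day 30, with no overlap.

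Lipid handling and creatine energy transfer held single genes with larger values. The lipid droplet coat gene Plin4 was 1.39 higher (adjusted p = 0.069), at 6.38, 6.75 and 6.76 at day 20 and 7.85, 8.60 and 7.62 at day 30, in a list where 4 of 20 genes were higher and 0 lower at an unadjusted limma p under 0.05. Mitochondrial creatine kinase (Ckmt2) was 2.41 higher (adjusted p = 0.11), at 5.59, 7.13 and 7.66, then 9.10, 9.48 and 9.01, and adenylate kinase (Ak1) was 0.67 higher (adjusted p = 0.054). Their arrays did not overlap. The 10 genes of the energy transfer list had 0 calls and a median of 0.082, which turned to -0.033 without day 20 replicate 1. Of them, 2 were higher and 0 lower at an unadjusted limma p under 0.05, and Ckb was at -0.55 (adjusted p = 0.62). Of 21 glycolysis genes, 17 were below 0, with a median of -0.24 (-0.38 without day 20 replicate 1), 0 calls and 1 lower and 0 higher at an unadjusted limma p under 0.05 (Pgam1, -0.39, adjusted p = 0.43).

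Sterol synthesis genes were slightly higher in nearly every member. Of 20 genes, 19 were above 0, the arrays of 12 did not overlap upward and those of 0 downward, and the median was 0.48, yet 0 were called, with 4 higher and 0 lower at an unadjusted limma p under 0.05. Idi1, which makes the building block of sterols, was 0.98 higher (adjusted p = 0.15), at 8.60, 8.84 and 8.79 at day 20 and 9.58, 9.68 and 9.90 at day 30. Msmo1 was 0.64 higher, Cyp51 0.57 and Hmgcs1 0.43 (adjusted p = 0.35, 0.41 and 0.44). From day 10 to day 20 the median of the same list was -1.39. Both intervals use the same day 20 arrays, so their changes are not independent. The fatty acid synthesis genes Acaca and Fasn were 0.66 and 0.60 higher (adjusted p = 0.22 and 0.24), after differences of -1.20 and -1.20 in the earlier interval.

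Hypoxia response genes, which HIF factors switch on when oxygen is short, gave 0 calls among 16, with 13 below 0, a median of -0.35 (-0.57 without day 20 replicate 1 and -0.16 without day 20 replicate 2), and 2 higher and 1 lower at an unadjusted limma p under 0.05. The direction differed for the carbonic anhydrase Car9, 2.11 higher (adjusted p = 0.17), at 8.35, 7.21 and 7.43 at day 20 and 10.46, 10.24 and 8.62 at day 30. Of 39 growth factor ligands and inhibitors, 0 were called, with 5 higher and 1 lower at an unadjusted limma p under 0.05. The epithelial growth factor Fgf7, made by mesenchymal cells, was 1.43 higher (adjusted p = 0.15), and Igfbp4, which binds insulin-like growth factors, read 11.50, 10.48 and 10.40 at day 20 and 12.39, 11.96 and 12.32 at day 30 (adjusted p = 0.15). Ribosomal protein genes were slightly lower, 15 of 17, with a median of -0.12, 0 calls and 4 lower and 0 higher at an unadjusted limma p under 0.05, among them Rpl11 (-0.24, adjusted p = 0.28).

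**Figure D4:**
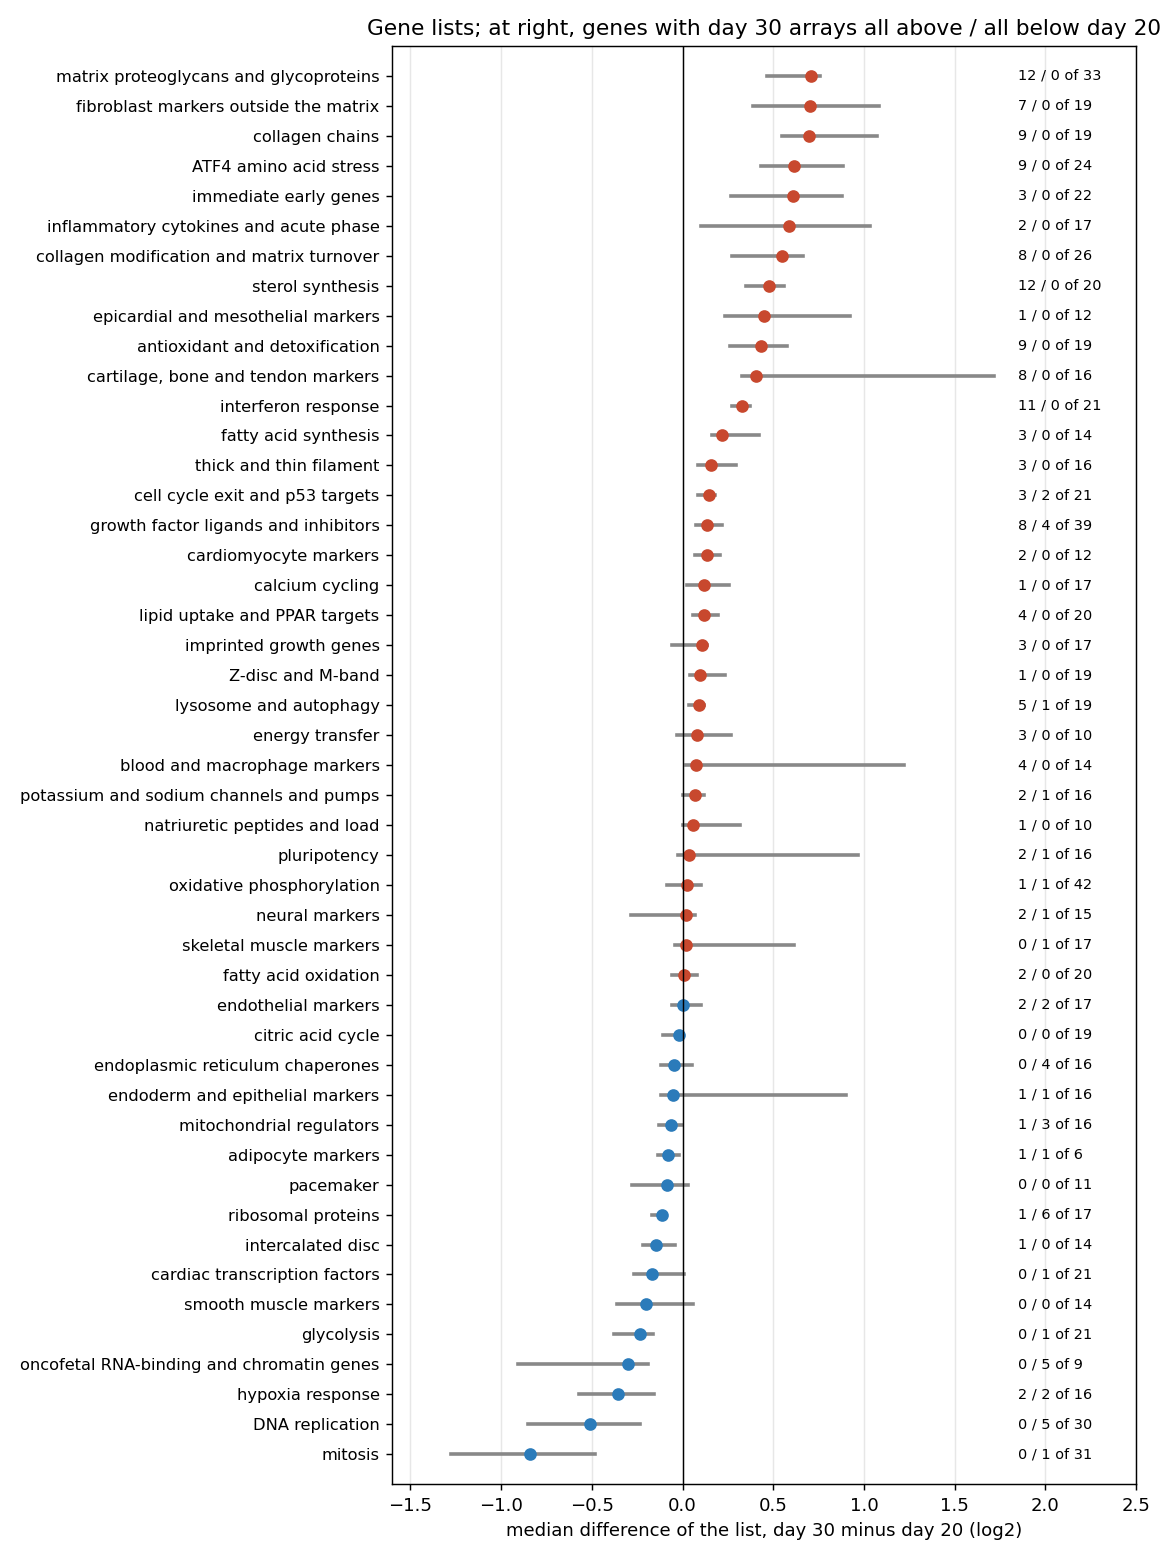
Dots are the median differences (day 30 minus day 20, log2) of 47 gene lists, and grey lines span the values under all other settings, including 1 array left out in turn. The matrix, fibroblast and collagen lists are highest (0.71, 0.70 and 0.70) and the mitosis list is lowest (-0.84), and the counts at right are genes whose day 30 arrays all lie above or all below day 20, of those measured.

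For some genes the later change differed from the earlier one, tested as the difference between both changes. It was above 0 for 28 genes, 0.154% of those tested, and below 0 for 59, 0.324%. The number fell to 0 when day 20 replicate 2 was omitted, where 1635 genes had an unadjusted limma p under 0.05, to 1 on omitting day 20 replicate 3, and to between 27 and 47 on omitting any other day 20 or day 30 array. It rose to 1725 on omitting day 10 replicate 3. All 87 genes kept their direction in each of these fits, but they had been chosen by p in the same arrays. Cdh13, a cadherin anchored to the membrane by lipid, read 6.22, 6.93 and 6.80 at day 10, 10.66, 11.44 and 11.24 at day 20 and 10.41, 10.64 and 10.50 at day 30. Its change went from 4.47 to -0.60, a difference of -5.06 (adjusted p = 0.013). Fgl2, a secreted prothrombinase, changed by 4.68 and then by 0.26 (difference -4.43, adjusted p = 0.013).

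Casq2 changed by 5.35 and then 0.81 (difference -4.54, adjusted p = 0.014), and Rin2, a regulator of endosome traffic, by 1.94 and then 0.20 (difference -1.74, adjusted p = 0.014). Of the 61 genes called in the later interval, 4 had also changed in the opposite direction in the earlier one, Gja4, Adamts3, Akna and 1810062O18Rik, named after their values were seen. Both changes use the same day 20 arrays and are not independent, so a deviation of those arrays moves them in opposite directions. Gja4 was at 4.83, 5.29 and 5.11 at day 10, rose by 2.25 to day 20 (adjusted p = 0.00066) and then fell by 1.32 (difference -3.57, adjusted p = 0.014). Adamts3 rose by 1.54 (adjusted p = 0.00087) before its fall. Akna, a DNA-binding protein, and 1810062O18Rik fell first, by 0.51 and 0.63 (adjusted p = 0.0066 and 0.0052), and then rose by 0.53 and 0.60 (adjusted p = 0.045 and 0.047), all at dim signal.

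**Figure D5:**
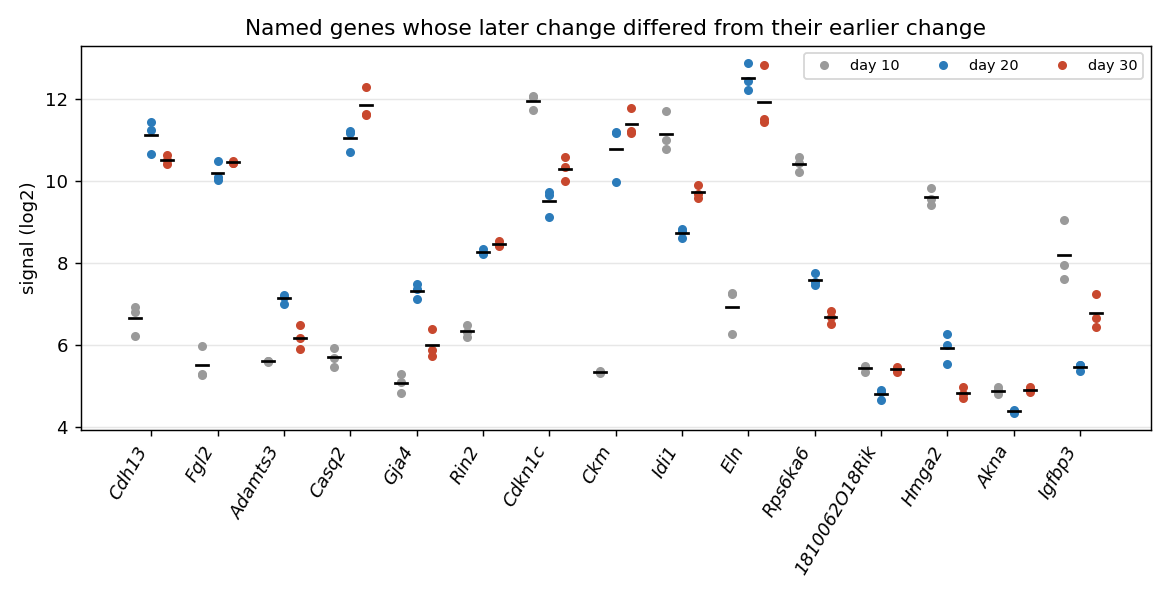
Points are the log2 signals of single arrays at day 10 (grey), day 20 (blue) and day 30 (red) for the 15 named genes whose later change differed from the earlier one, with black bars at the means. Cdh13, Fgl2, Casq2 and Ckm climb by 4.47 to 5.44 up to day 20 and differ by -0.60 to 0.81 afterwards, while Idi1, Cdkn1c and Igfbp3 drop first and are 0.80 to 1.31 higher at day 30.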

How the data were processed

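The authors deposited a log2 signal for every probe set on every array. Per the labels' protocols, RNA was labelled with biotin using a 3 prime amplification kit. Normalization, software, genome build and log base were not given in the sources used here, and base 2 was inferred from the range of values. Scanner files were not used, so background was not judged probe by probe, and "dim" means both day means below the median gene (6.63).

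Of 45101 probe sets, 34958 had 1 symbol in the platform annotation, 932 several and 9211 none, and 34754 matched the RefSeq table by gene ID. The brightest probe set stood for a gene, giving 18194 genes. The model, fitted in limma 3.58.1 (R 4.3.3), held a mean per day over all 9 arrays (two-sided, Benjamini-Hochberg over all genes, threshold 0.05). The number of arrays, 3 per day, limits the precision. The fit was tested on simulated data.

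The comparison, the 47 lists (922 genes, 845 measured) and the tests were chosen with earlier results of these data known. Named genes are the 15 largest rises and falls with arrays that do not overlap and a higher mean above the median gene, where places left among falls went to genes with an unadjusted p under 0.01, up to 4 genes per list by p, a fixed set of heart and matrix genes, and 5 genes from the interval test. Others were chosen after their values were seen: the remaining called genes, the neighbouring pairs, Asns, Dcn, Eln, Ifit1, Lcn2, Nupr1, Pprc1, Slc7a11 and Stat2. Alternatives were other normalization, centring, probe set, filter, weight and variance choices, only 6 arrays, each array left out, and the replicate number as a block. Deviations of same-numbered day 20 and day 30 arrays correlated at 0.0082, 0.434 and 0.301, which does not settle whether the numbers pair the samples. The main fit did not pair them. With the number as a block, 32 genes rose and 1 fell, and 24 of the 61 genes passed in both fits.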

Additional observations from a re-analysis of the deposited data

Results flagged for a closer look

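In 15 named genes the change from day 20 to day 30 differed from that of day 10 to day 20 by limma's test of the difference, adjusted over all genes. The intervals share the day 20 arrays. The later minus the earlier change was below 0 for elastin (Eln, -6.18, adjusted p = 0.018), Cdh13 (-5.06, adjusted p = 0.013), Fgl2 (-4.43, adjusted p = 0.013), Ckm, the muscle creatine kinase (-4.83, adjusted p = 0.016), Casq2 (-4.54, adjusted p = 0.014), Gja4 (-3.57, adjusted p = 0.014), Adamts3 (-2.49, adjusted p = 0.014) and Rin2 (-1.74, adjusted p = 0.014). Adamts3 turned round like Gja4, from 1.54 to -0.95.

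It was above 0 for Igfbp3, a carrier of insulin-like growth factors (4.05, adjusted p = 0.042), Idi1 (3.40, adjusted p = 0.016), Cdkn1c (3.24, adjusted p = 0.016), Hmga2 (2.57, adjusted p = 0.024), Rps6ka6 (1.91, adjusted p = 0.022), 1810062O18Rik (1.24, adjusted p = 0.024) and Akna (1.04, adjusted p = 0.025). Igfbp3 read 5.36, 5.52 and 5.52 at day 20 and 6.43, 6.65 and 7.25 at day 30, below 7.62 to 9.04 at day 10. Rps6ka6 and Hmga2 were lower in both intervals, by less in the later one.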

How the results depend on the processing

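The 53 rises became 29 with quantile normalization, 33 with median centring, 231 with array weights, 32 with the replicate number as a block, and 5 to 35 with 1 array left out. The 8 falls became 4, 5, 80 and 1 in the same order, 5 with the mean of probe sets, 5 with a trended and robust variance, 3 when every probe set was tested, and 0 to 2 with 1 array left out. The 6 arrays of the later days alone gave 43 and 11, and 24 of the 61 genes passed in both fits. The 87 genes of the interval test ranged from 0 to 1725 with 1 array left out and were 74 with the block. All 61 called genes kept their direction in every fit that tested them. In the fits with 1 array left out or with array weights this was fixed in advance, because the arrays of these genes do not overlap. With only 6 arrays, dim genes left out, a trended and robust variance or the block, every gene tested kept the difference of the main fit. No sign could turn in those fits. Quantile normalization, median centring and the mean of probe sets could have turned a sign.

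Among 157 genes of the text, 8 values reversed, each of a gene that was not called: Tnni1 at -0.0043 (quantile) and -0.035 (centring), and 6 with 1 array left out, where Slc8a1 ranged from -0.0716 to 0.7582, Tnni1 from -0.0618 to 0.0692, Myl7 from -0.1817 to 0.0426 and Ppargc1a from -0.1606 to 0.0205. List medians turned sign in 13 of 47 lists under some setting, and the adipocyte list had no value without dim genes. The cause of these shifts was not tested.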
